A study of Mus musculus with 2 samples.

Results

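The genes described here encode the proteins that bind hyaluronan in skin, together with the proteins that place inter-alpha-trypsin inhibitor heavy chains on it. They are Itih5, Tnfaip6, Ptx3, Vcan, Hapln3, Cd44, Lyve1, Layn, Hmmr and Habp4, 10 of the 22180 genes that the platform annotation gave to probe sets with exactly 1 symbol, and each had 1 probe set. RNA was compared between 2 three-dimensional skin models of keratinocytes and fibroblasts at day 7, 1 made with cells of Itih5 knockout mice and 1 with cells of wildtype mice. The mice were adult and untreated, and both models came from primary cultures that had been passaged in series until they grew without a collagen support, per the labels. The labels give neither the strain, the number of mice behind each model nor the part of Itih5 that was removed. Each model was measured on 1 array, so no difference below has a replicate check or a p-value, and the number of arrays limits the precision.

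Hyaluronan is a long, unbranched sugar polymer made at the cell membrane and extruded into the matrix, where it holds water between dermal cells and between the living layers of the epidermis. Proteins with a Link module, among them CD44, LYVE1, versican, the HAPLN link proteins and TSG-6 (the product of Tnfaip6), hold on to it without a covalent bond. Inter-alpha-trypsin inhibitor heavy chains can instead be bonded to it covalently, a transfer that TSG-6 catalyses, and pentraxin 3 (Ptx3) ties the resulting complexes to each other. RHAMM (Hmmr) and HABP4 are hyaluronan-binding proteins that lack a Link module and also work inside the cell.

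Values are probe set intensities in linear units, and differences are log2 of the knockout minus log2 of the wildtype intensity. The decimal point was missing from nearly all deposited values and was put back by calculation. A place of the point was possible only where the number could have come from a single-precision log2 value. Where several places were possible, the likeliest pair was kept if its probability reached 0.95. The probability was learnt from the levels and sizes of difference of all probe sets. Most of these differ little, so it favours the place with the smaller difference. Of the 10 genes, 9 were restored and Layn was left undecided. Itih5, Tnfaip6 and Hapln3 had 1 possible place on both arrays. The other 6 restored genes had more than 1, and their second place is given beside the first, since a misplaced point moves a value by a whole decimal step. A gene counted as expressed if its higher intensity reached 46.4, the median over all restored values, and the 5th percentile, 21.4 on both arrays, marks their background. The column medians, 46.2 in the knockout model, against 46.6 in the wildtype model, were used without further scaling.

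Among the restored genes Vcan passed 2-fold, on the higher side in the knockout model, and none of the other expressed ones reached 2-fold. Layn, whose point is undecided, is outside these counts. Each of its possible pairs lay above the threshold and differed by at least 3.11-fold, in a direction that is unknown. Of the 8 restored and expressed genes, 1 was at least 2-fold higher (12.5% at least 2-fold apart) and 0 were at least 2-fold lower. Of all 12688 expressed genes, 3.78% were at least 2-fold higher, 3.27% at least 2-fold lower and 7.05% apart in either direction, so 1 called gene of 8 is no result about the group. Differences ran from -0.92 for Cd44 to 1.28 for Vcan, with 4 genes above 0 and 4 below. Hapln3 and Lyve1 reached the threshold on 1 array only, and of the 6 genes at or above it on both, 3 were above 0 and 3 below. Over all expressed genes 54.2% were above 0. Their median was -0.09, against 0.04 over all expressed genes. The members lay on both sides of 0, with 4 of the 8 within 1.5-fold, as were 80.4% of all expressed genes.

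**Figure D1:**
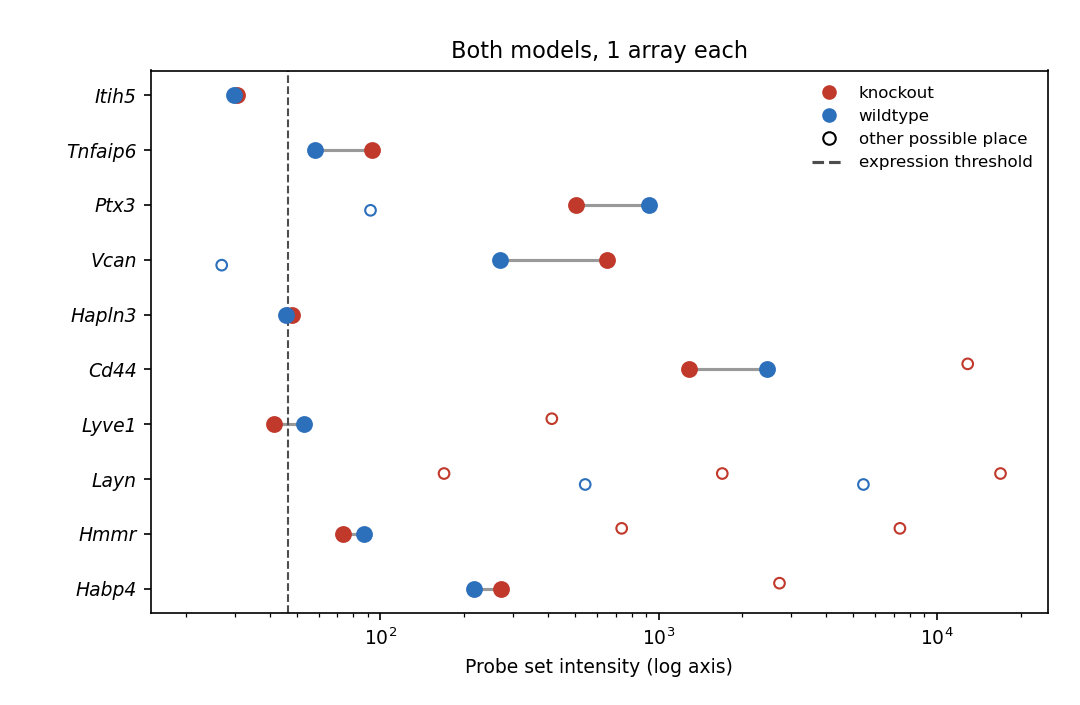
Intensity of each gene on a log axis, with the knockout model in red, the wildtype model in blue, other possible places of the point as open circles and the expression threshold of 46.4 as a dashed line. Vcan shows the widest gap of the restored genes, with 652.5 in the knockout model, against 269 in the wildtype model, Itih5 lies left of the threshold in both, and Layn has open circles only because its point is undecided.

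Itih5, the gene that gives the genotype its name, encodes a heavy chain of the inter-alpha-trypsin inhibitor family. Probe set 17366670 (Entrez 209378) gave 30.4 in the knockout model, against 29.8 in the wildtype model, a difference of 0.03. Both values lay under the expression threshold and at 1.42 and 1.39 times the 5th percentile of the knockout and the wildtype array. The wildtype signal was thus too near the background for this probe set to tell the genotypes apart, and the labels are not checked by it. The other heavy chains that were measured, Itih1, Itih2, Itih3 and Itih4, and Ambp, which encodes the light chain bikunin, were below the threshold as well. With Itih5, the 6 genes lay between 27.1 and 40.5 in knockout cells and between 25.3 and 44.4 in wildtype cells. The heavy chains and bikunin of plasma are made mainly in the liver. None of the measured heavy chain transcripts was above the threshold in either model, whereas Tnfaip6 was in both. Itih6 had no probe set with exactly 1 symbol, so nothing is known of it here.

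Tnfaip6 encodes TSG-6, the transferase of the heavy chains, a secreted Link module protein induced by inflammatory cytokines. Its probe set (17370735) read 93.4 in the knockout model, against 58.0 in the wildtype model, a difference of 0.69 or 1.61-fold, with 1 possible place of the point on each array. The wildtype value lay 1.25-fold above the expression threshold and the knockout value 2.01-fold. At such low levels background compresses a difference, and with the 5th percentile subtracted it was 0.98. Of all expressed genes, 8.72% lay at least as far above 0 as Tnfaip6.

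Ptx3, the gene of the long pentraxin that crosslinks the heavy chains of the hyaluronan coat, read 503 in the knockout model, against 921 in the wildtype model (probe set 17398115), a difference of -0.87 or 1.83-fold. The probability of this place was 0.965. At the other possible place, with a probability of 0.0354, the wildtype value was 92.1 instead, and Ptx3 would be 5.46-fold higher in the knockout model. When the coarser exponents of high values were not weighted, the probability of the first place dropped to 0.927, under the minimum. The direction of Ptx3 accordingly rests on the restoration and is the least certain of the restored genes.

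TSG-6 and pentraxin 3 are both products of inflammatory signalling, and a list of genes of the IL-1 and TNF response was set beside them. Of 10 expressed genes of that list, 3 were at least 2-fold higher and 0 lower, 9 were above 0, and the median difference was 0.58, against 3.78% higher, 3.27% lower, 54.2% above 0 and a median of 0.04 over all expressed genes. Ptgs2, the inducible cyclooxygenase, read 1084 in the knockout model, against 302 in the wildtype model. Ccl7, a monocyte chemokine, read 1706 against 548, and the neutrophil chemokine Cxcl2 270.1 against 103. Sod2, the mitochondrial superoxide dismutase, read 5562 in the knockout model, against 3513 in the wildtype model, Il1a 2536 against 1793 and Cxcl1 964 against 595. The exception below 0 was Tnf with 136 in the knockout model, against 218 in the wildtype model, and with a probability of 0.956 its place is less certain than those of Ptx3 and Cd44. Tnfaip6 lay within this list's range, with 4 of the 10 genes further above 0, whereas Ptx3 lay below each of them at its first place. Il6 and Il1b were under the threshold in both models, and without a filter on low values the median of this list was 0.46. The points of Ccl2 and Nfkbia were undecided. Of the ligands of pentraxin 3, 3 of 7 were expressed and 0 reached 2-fold. Tlr4 read 352 in the knockout model, against 257 in the wildtype model, Fgf2 50.5 against 50.4 and C1qa 49.6 against 44.0.

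Since Tnfaip6 and Ptx3 are known to be induced by cytokines, the 250 bases before their annotated starts are shown, read from RefSeq on GRCm38.p6 and printed in the direction of transcription. Both genes are on the plus strand. Capitals mark every match, on either strand, to 7 motifs that were searched for, namely GGNNTTTCC for NF-kappaB, TGANTCA for AP-1, TTGCNNAA for C/EBP, TATAAA for the TATA box, GGGCGG for the GC box, TTTGAA for the cell cycle homology region and CTTTGA for TCF/LEF. The last 2 can overlap each other.
Tnfaip6, chr2:52037863-52038112: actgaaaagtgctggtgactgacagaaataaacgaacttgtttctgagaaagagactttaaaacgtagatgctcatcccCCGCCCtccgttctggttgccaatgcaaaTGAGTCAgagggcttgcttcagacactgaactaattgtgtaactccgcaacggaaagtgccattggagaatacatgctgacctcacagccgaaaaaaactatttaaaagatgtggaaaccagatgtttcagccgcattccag
Ptx3, chr3:66219637-66219886: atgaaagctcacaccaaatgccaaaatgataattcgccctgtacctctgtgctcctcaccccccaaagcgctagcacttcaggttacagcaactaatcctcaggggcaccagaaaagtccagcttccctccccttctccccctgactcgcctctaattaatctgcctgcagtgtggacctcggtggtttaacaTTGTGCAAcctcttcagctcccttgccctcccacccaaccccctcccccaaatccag
The Tnfaip6 window held an AP-1 match that begins 142 bases before the start, a motif found in 6.75% of the 32851 windows of this length, and a GC box at 171 bases. The Ptx3 window held a C/EBP match 57 bases before the start, a motif found in 9.56% of windows. Neither window held GGNNTTTCC, the letters searched for NF-kappaB, which 4.93% of windows contain. Sites with other letters or outside the 250 bases would be missed. A match of letters is a description and does not show binding, and the lack of one does not show that a site is absent.

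Vcan encodes versican, the large chondroitin sulphate proteoglycan whose Link modules anchor it on hyaluronan in the dermis. Its probe set (17294738) read 652.5 in the knockout model, against 269 in the wildtype model, a difference of 1.28 or 2.43-fold. The second possible place, with a probability of 0.00403, would lower the wildtype value to 26.9, so Vcan was higher in the knockout model at either place. Of all expressed genes, 1.92% lay at least as far above 0. The 250 bases before its start are shown because Vcan was the restored gene past 2-fold. They lie on the minus strand of GRCm38.p6 and are printed in the direction of transcription with the same motifs in capitals.
Vcan, chr13:89742513-89742762: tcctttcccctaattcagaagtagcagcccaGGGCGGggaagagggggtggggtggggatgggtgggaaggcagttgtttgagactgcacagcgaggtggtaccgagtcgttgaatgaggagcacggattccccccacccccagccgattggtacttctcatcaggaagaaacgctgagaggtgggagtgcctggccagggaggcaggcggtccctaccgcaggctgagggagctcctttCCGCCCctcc
This window had 62.4% G and C, against a median of 52.4% over all windows, and held GC boxes at 219 and 10 bases before the start. The GC box was present in 32.7% of all windows and in 6 of the 9 found for these genes.

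Of 5 expressed versican partners and versican-cleaving proteases, 2 reached 2-fold on the higher side and 0 on the lower. All 5 were above 0, with a median difference of 0.98. Over all expressed genes 3.78% were at least 2-fold higher, 3.27% at least 2-fold lower and 54.2% above 0, with a median of 0.04. The restored Tnr, Selp and Adamts20 were below the threshold, with differences of 0.10, -0.31 and -0.09. Without a filter on low values the median of this list was 0.26. Tnc, the tenascin C gene, whose product binds the lectican family, read 5314 in the knockout model, against 1550 in the wildtype model, 3.43-fold higher. Adamts15, a protease of the versican-cleaving group, read 219 in the knockout model, against 83.0 in the wildtype model, 2.64-fold higher. Fbln2, which encodes the versican ligand fibulin-2, read 1729 against 876, just under 2-fold, and Fbln1 396 against 321. Adamts4 was nearly level with 95.5 in the knockout model, against 82.0 in the wildtype model. The points of Adamts1, Adamts5 and Adamts9 were undecided.

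Hapln3, a link protein that steadies the bond between hyaluronan and proteoglycans such as versican, read 48.2 in the knockout model, against 45.9 in the wildtype model (probe set 17492305), with 1 possible place on each array and a difference of 0.07. It passed the threshold in the knockout model only and lay close to it in both, so no change can be read from it. The other link proteins were also low. Hapln4 read 75.4 in the knockout model, against 42.2 in the wildtype model, and Hapln1 and Hapln2 were below the threshold, as were the proteoglycan genes Acan and Bcan. Of 7 expressed genes among the other hyaluronan receptors and binders, 0 reached 2-fold, 6 were above 0, and the median was 0.45. Over all expressed genes these were 7.05%, 54.2% and 0.04. C1qbp, a mostly mitochondrial protein that also binds hyaluronan, read 544 in the knockout model, against 458 in the wildtype model. Tlr4 is given above and Tlr2, which like it senses hyaluronan fragments, read 285 against 166. Without a filter on low values the median of this list was 0.07, since 8 of its 15 genes lay below the threshold.

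**Figure D2:**
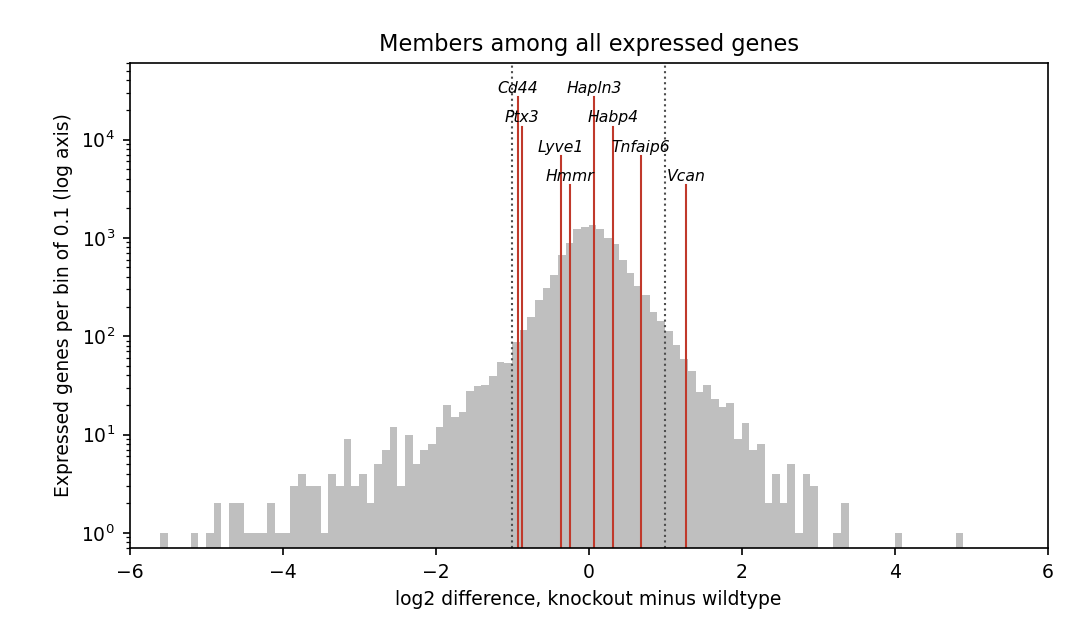
Number of expressed genes per bin of the log2 difference, knockout minus wildtype, on a log axis, with the 8 expressed hyaluronan genes as red lines and 2-fold as dotted lines. Vcan at 1.28 is past the dotted line, while Cd44 at -0.92 and Ptx3 at -0.87 stop just inside it.

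Cd44 encodes the main hyaluronan receptor of keratinocytes and fibroblasts. Its probe set (17388733) read 1291 in the knockout model, against 2445 in the wildtype model, a difference of -0.92 or 1.89-fold, which 3.82% of expressed genes reached or passed in that direction. The probability of this place was 0.965. The other possible place would give 12906 in the knockout model, 5.28-fold higher than in the wildtype model, with a probability of 0.0348, so the direction of Cd44 also rests on the restoration. At their first places, the difference of Vcan exceeded that of Cd44 by 2.20 log2. The 250 bases before the start of Cd44 held none of the 7 motifs.

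Genes of proteins that tie CD44 or layilin to the cytoskeleton, shed CD44 or steer its splicing were listed with other partners of CD44. Their differences were mixed. The largest above 0 were those of Srgn (0.73) and Met (0.59), which are partners of none of the 3 named kinds and enter the median below. Of 9 expressed genes of this list, 0 were at least 2-fold higher and 1 was at least 2-fold lower, with a median of 0.30. Over all expressed genes these were 3.78%, 3.27% and 0.04. The gene of this list past 2-fold was Esrp2, a splicing regulator of epithelial cells that acts on Cd44 transcripts. It read 229 in the knockout model, against 621 in the wildtype model, 2.71-fold lower. Ezr, which encodes the linker ezrin, read 1301 in the knockout model, against 2388 in the wildtype model, with a probability of 0.95 for its place. Its relative moesin (Msn) read 3050 in the knockout model, against 2187 in the wildtype model, and Mmp14, a membrane protease that can shed CD44, 3997 against 3065. Tln1, Ank3, Esrp1 and Adam10 were undecided. The array gives 1 value for all Cd44 isoforms, so splicing itself was not measured.

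Lyve1 encodes the hyaluronan receptor of lymphatic endothelium and of some tissue macrophages, cells that neither model was built from. Its probe set (17495097) read 41.3 in the knockout model, against 53.0 in the wildtype model, a difference of -0.36, and the knockout value was below the threshold. A second place of its point, with a probability of 0.00657, would give 413 in the knockout model. Prox1, the transcription factor that defines this endothelium, read 37.5 in the knockout model, against 34.2 in the wildtype model, and Flt4 59.5 against 48.1. Of the 5 lymphatic markers restored, 4 were below the threshold, and the 5 summed to 196 in knockout and 190 in wildtype cells. Of 6 macrophage markers, which summed to 1153 in knockout and 1518 in wildtype cells, 4 were below it too, with Adgre1, which encodes F4/80, at 34.4 in the knockout model, against 41.1 in the wildtype model. The macrophage genes above it were Cd68, with 861 in the knockout model, against 1161 in the wildtype model, and Lyz2, with 151 against 203. The points of Pdpn, Mrc1 and Ptprc were undecided. Flt4 was the 1 expressed lymphatic marker that was restored, so the list median of 0.31 is its value alone. With every gene at its likeliest place, which lets in Pdpn, the median was -0.42, and neither value describes the marker set. The part of either cell type in the Lyve1 values was not tested.

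Layn encodes layilin, a C-type lectin receptor of hyaluronan that binds talin inside the cell. Its deposited digits (probe set 17526956) allowed 6 pairs of values, none with a probability of 0.95. The likeliest was 169 in the knockout model, against 544.5 in the wildtype model (0.531), followed by 1693 against 544.5 (0.368) and 1693 against 5445 (0.0977). Summed over all pairs, the probability was 0.629 for lower and 0.37 for higher in the knockout model. The direction is thus unknown, and of the size only a lower bound is known, since every pair differed by at least 3.11-fold and 1 pair by 32.2-fold. Layn is for this reason further apart between the models than any gene of the group at its first place, and is missing from the counts of genes at least 2-fold apart. With the probability learnt in bins of double width the first pair had 0.485 and the second 0.426. Without the weight for exponents they had 0.737 and 0.194.

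**Figure D3:**
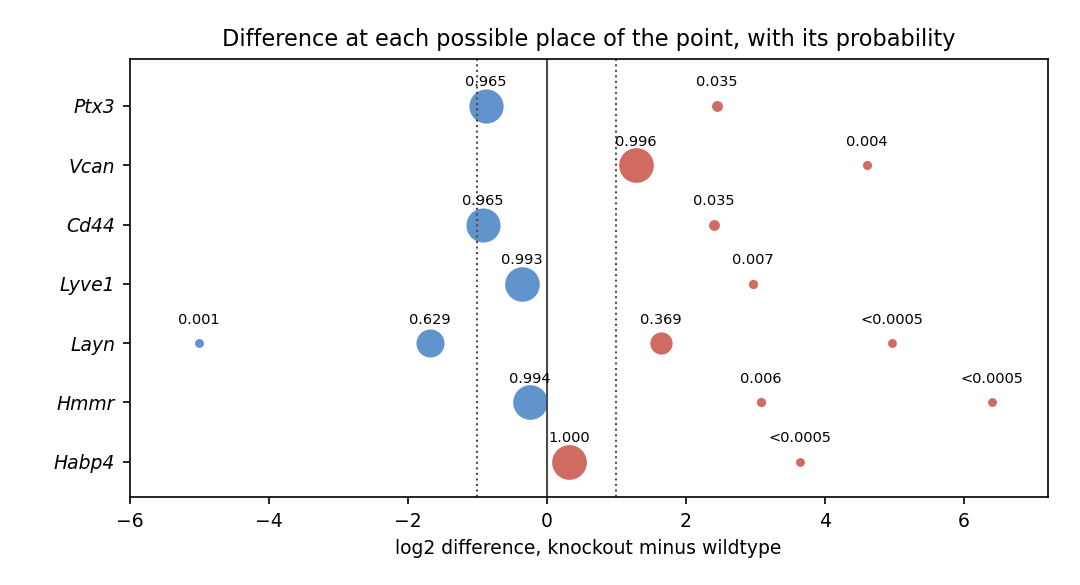
The log2 difference, knockout minus wildtype, at each possible place of the decimal point for the 7 genes with several places, with the probability above each circle, summed where pairs share a difference, and circle area growing with it. Vcan and Habp4 stay right of 0 at each place, Layn stays outside the dotted 2-fold lines on both sides, and the first places of Ptx3, Cd44, Lyve1 and Hmmr lie left of 0 with a less likely place to the right.

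Hmmr encodes RHAMM, a hyaluronan-binding protein of the mitotic spindle that is made in dividing cells. Its probe set (17261840) read 73.6 in the knockout model, against 87.4 in the wildtype model, a difference of -0.25, with a probability of 0.994. A second place, with a probability of 0.00638, would give 736 in the knockout model. Of 19 expressed mitotic genes, 0 reached 2-fold, 13 were below 0 and 6 above, and the median was -0.14. Over all expressed genes 7.05% were at least 2-fold apart and 54.2% above 0, with a median of 0.04. Mki67, the proliferation marker, read 449 in the knockout model, against 655 in the wildtype model, Ccna2, which encodes cyclin A, 494 against 457, and the mitotic kinase Plk1 302 against 302. Hmmr lay inside the range of these genes, with 4 of them further below 0.

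Habp4 encodes Ki-1/57, an RNA-binding protein of nucleus and cytoplasm that also binds hyaluronan. Its probe set (17288145) read 272 in the knockout model, against 218 in the wildtype model, a difference of 0.32, and the second place, 2718 in the knockout model with a probability of 0.000412, would also put it higher there. Of 5 expressed genes of proteins related to or bound by it, 0 reached 2-fold and the median was 0.03. Over all expressed genes these were 7.05% and 0.04. The paralogue Serbp1 read 3392 in the knockout model, against 4252 in the wildtype model, the elongation factor gene Eef2 6798 against 8275, and Fmr1, which encodes another RNA-binding protein, 1100 against 662.

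Of 10 expressed genes that make hyaluronan, degrade it or supply its precursors, 0 reached 2-fold, 9 were above 0, and the median was 0.26. Over all expressed genes these were 7.05%, 54.2% and 0.04. The largest differences of this list were those of Ugdh and Gfpt2. Ugdh, which makes the precursor UDP-glucuronic acid, read 1052 in the knockout model, against 550 in the wildtype model. Gfpt2, of the hexosamine pathway, read 106 in the knockout model, against 60.7 in the wildtype model. The probability of the place of Gfpt2 was 0.951, just past the minimum. Uap1, of the other precursor's pathway, read 390.5 in the knockout model, against 290 in the wildtype model, and the hyaluronidase gene Hyal2 347 against 269. Has3, Cemip and Ugp2 had undecided points, so their differences are not known here.

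Markers of both cell types of the models moved beside these results. All 10 expressed keratinocyte markers were below 0 in the knockout model, from -1.61 to -0.30, with a median of -0.99, and 5 of them were at least 2-fold lower. Their summed intensity was 15679 in the knockout model, against 34827 in the wildtype model. Krt1 reached the threshold in the wildtype model only, with 39.8 in the knockout model, against 54.7 in the wildtype model. All 9 expressed fibroblast markers were above 0, from 0.35 to 1.63, with a median of 0.89. Of them, 2 were at least 2-fold higher. Lum, below the threshold, lay the other way with 24.6 in the knockout model, against 30.9 in the wildtype model. Together with Lum the fibroblast markers summed to 9732 in the knockout model, against 5616 in the wildtype model. Without a filter their median was 0.87. The points of Pdgfrb, Prrx1 and the keratinocyte marker Trp63 were undecided. Over all expressed genes 3.78% were at least 2-fold higher, 3.27% at least 2-fold lower and 54.2% above 0, with a median of 0.04. Krt14, the basal keratin, read 4076 in the knockout model, against 9538 in the wildtype model, and the collagen gene Col1a1 2145 against 876. The difference of Vcan was larger than that of 7 of the 9 fibroblast markers, and Twist2 and Col1a1 lay further above 0. Cd44 lay among the keratinocyte markers, with 6 of 10 further below 0. A smaller number of cells of a type and less RNA per cell cannot be told apart in such samples, and the part of cell proportions in these differences was not tested.

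**Figure D4:**
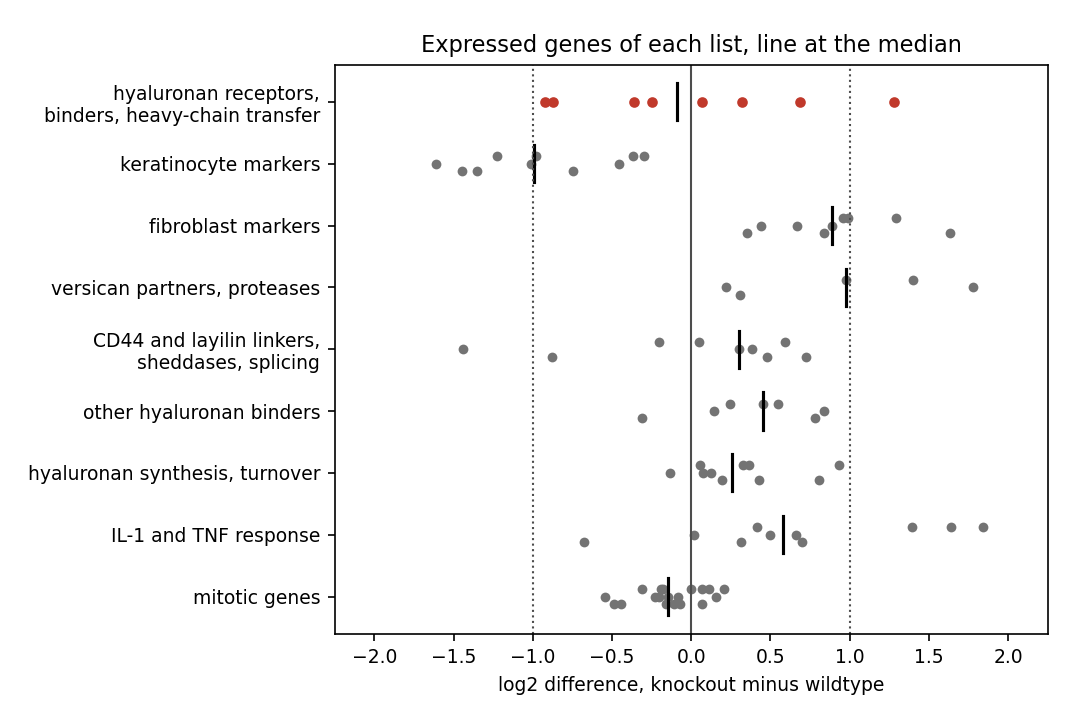
The log2 difference, knockout minus wildtype, of each expressed gene in the hyaluronan group (red) and in 8 lists (grey), with a black line at each median and dotted lines at 2-fold. The keratinocyte markers all lie left of 0 around a median of -0.99 and the fibroblast markers all right of 0 around 0.89, while the hyaluronan group spans both sides with a median of -0.09.

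Markers of other cell types were partly expressed. Of 6 blood endothelial markers, 4 were below the threshold, Pecam1 and Cdh5 among them. Kdr read 87.4 in the knockout model, against 36.1 in the wildtype model, and Tie1 54.1 against 46.3. Both reached the threshold in the knockout model only. Their median was 0.75, and without a filter that of all 6 was -0.05. Of 7 melanocyte markers 3 were below the threshold, including the pigment enzymes Tyr and Dct, and 4 were expressed. Mlana read 705 in the knockout model, against 109 in the wildtype model, Mitf 464 against 215, Pmel 69.2 against 56.5 and Sox10 51.3 against 66.4. The median of the 4 was 0.70, and without a filter that of all 7 was -0.07. Of 6 adipocyte markers 3 were below it, Adipoq among them. Fabp4 read 4974 in the knockout model, against 816 in the wildtype model, Pparg 502 against 384 and Plin1 74.8 against 62.6. Their part in the differences of the hyaluronan genes was not tested.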

How the data were processed

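Each of 2 skin models was hybridised to 1 Affymetrix array after amplification to sense-strand cDNA and biotin labelling, per the labels. The authors deposited linear intensities, 1 for each probe set. The sources used here do not say how probes were summarised or arrays normalized. Of 67586 values, 67457 had no decimal point. A place was possible if it gave a value between 18 and 20000 that a single-precision computer number writes in exactly these digits and that equals 2 raised to such a number. None of these values lacked one, whereas 90.5% of random 8-digit numbers did. Pairs of places were given probabilities from the joint distribution of level and size of difference, learnt in 25 rounds, in bins of 0.25 and 0.1 log2, with exponents of 8 or more weighted for their coarser step. Pairs reaching 0.95 were kept, which restored 31825 of 33793 probe sets (94.2%), with 46.3 expected to be misplaced. The steps were tested on simulated data, where probe sets over 2-fold apart were restored less often, so counts of such genes are undercounts.

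The platform annotation gave the names of probe sets, 23521 with 1 symbol, 1814 with several and 8458 unnamed here. The highest probe set stood for a gene. Promoter windows matched 9 of the 10 genes, all but Lyve1. A gene was called if it was at least 2-fold apart, since 1 array per group allows no test. The genes and lists were chosen with earlier results of these data known. Of each list, genes past 2-fold and up to 3 others with the highest levels were to be named; undecided genes, exceptions, defining markers and genes below the threshold named besides these were chosen after their values were seen. Alternatives covered scaling, background, pseudocount, filters, fold and the decimal point. Python 3.11.15, numpy 2.4.6 and pandas 2.3.3 were used.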

Additional observations from a re-analysis of the deposited data

How the results depend on the processing

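Differences of the 9 restored genes under 10 settings of scaling, background, pseudocount, probe sets and decimal point kept their sign wherever a setting gave a value. Many of these settings could not change a sign. Each gene had 1 probe set, a pseudocount keeps the sign, and stricter choices of places could only keep a value or drop it. The kept signs therefore speak mainly to scaling and background. Vcan ranged from 1.23 to 1.35, Cd44 from -0.94 to -0.91, Ptx3 from -0.90 to -0.85 and Tnfaip6 from 0.56 to 0.98. Subtracting the 5th percentile moved Tnfaip6 to 0.98 and Lyve1 to -0.66, since both are near background, and raised the counts over all genes to 819 higher and 627 lower, against 480 and 415. A minimum probability of 0.99 leaves out Cd44 and Ptx3, a single possible place all but Itih5, Tnfaip6 and Hapln3, and the fit without the weight for exponents, chosen after seeing the data like that with bins of double width, leaves out Ptx3. At the second likeliest place, also added after seeing the data, Ptx3 (2.45), Cd44 (2.40), Lyve1 (2.96) and Hmmr (3.08) reversed, and Vcan (4.60) and Habp4 (3.64) moved upward. Where 1 place was possible on both arrays, 304 genes were higher over all, and 0 of the hyaluronan genes were 2-fold apart, since Vcan was not among those tested. With every likeliest place, 2 of them were 2-fold apart, Vcan and Layn. Of all list genes 18 were then higher and 12 lower, against 11 and 6 of 98 expressed. Over all genes these were 668 and 603, against 480 and 415 of 12688. At 1.5-fold, 4 of the 8 expressed hyaluronan genes passed, and of the 98 list genes 26 were higher and 10 lower. Over all 12688 genes 1445 were higher and 1044 lower, and 80.4% stayed within 1.5-fold. At 3-fold the counts were, in the same order, 0, 6, 1, 128 and 181. A mean level at the 75th percentile left 259 lower genes. Of 222 list medians under alternatives, 14 moved, and moved means by more than 0.26 log2, the median size of a difference. The 222 include those at 1.5-fold and 3-fold, which could not move because the fold does not enter a median. No paired analysis was possible because there is 1 model per genotype, and leaving a sample out would leave no comparison.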
